A study of Homo sapiens with 8 samples.

Results

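The mitochondrial genome (mtDNA) of human cells encodes 37 genes, and all 37 were listed in both deposited count tables among 60664 genes. They were taken as every gene whose symbol starts with MT-, which gave 13 mRNAs, 2 rRNAs and 22 tRNAs. By strand, 28 of them (12 mRNAs, both rRNAs and 14 tRNAs) are heavy-strand genes and 9 (MT-ND6 and 8 tRNAs) are light-strand genes. The cells were HEK293T, a transformed line from human embryonic kidney, that expressed APEX2, an engineered peroxidase that tags RNA near it with biotin in living cells. One construct sent APEX2 to the nucleus (NLS) and another to the cytosolic face of the mitochondrion, on its outer membrane (OMM), and biotinylated RNA was pulled down with streptavidin and sequenced. Each site had 2 labelled libraries and 2 unlabelled controls, 8 in all, and the controls came from cells that carry APEX2 too, as far as the labels say. NLS libraries were made from total RNA with a SMARTer stranded kit under the name ribominus, and OMM libraries came from a kit that keeps polyadenylated RNA (TruSeq Stranded mRNA), so site and kit cannot be told apart. The labels do not give the promoter that drives APEX2, whether cells were clonal, or whether each library had its own culture. Every p-value is thus set against a spread between libraries that may be only technical.

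Both strands of mtDNA are transcribed inside the organelle, behind the inner membrane, as long RNAs that run through many genes without introns. The tRNAs lie between most mRNAs and rRNAs, and cutting at both ends of each tRNA releases the RNAs next to it. The mRNAs encode subunits of respiratory complexes I, III and IV and of ATP synthase, the 2 rRNAs build the mitochondrial ribosome, and the 22 tRNAs decode the mRNAs there. Most heavy-strand mRNAs receive a short poly(A) tail, which completes the stop codon of several, whereas the mRNA of MT-ND6 is known to lack a stable tail.

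In the GENCODE 29 annotation of GRCh38, 25 of 36 neighbouring gene pairs touch or overlap, so a sequenced fragment of an uncut precursor can reach into the gene next to it. The sequences below are GENCODE 29 transcripts, 5′ to 3′. The first shows the 46 bases shared by MT-ATP8 and MT-ATP6, which sit on the same mRNA, at chrM:8527-8572 on the plus strand, with the start codon of MT-ATP6 in capitals. Reads that fall wholly inside it cannot be given to either gene.
MT-ATP8/MT-ATP6: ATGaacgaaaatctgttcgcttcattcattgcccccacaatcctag
The last 30 bases of 4 mRNAs are given because these mRNAs stood at the extremes of the results, with capitals on the last codon or on the part of a stop codon that the gene encodes. They end at chrM:10375-10404 (MT-ND3, plus strand), chrM:9178-9207 (MT-ATP6, plus strand), chrM:7416-7445 (MT-CO1, plus strand) and chrM:14149-14178 (MT-ND6, minus strand).
MT-ND3: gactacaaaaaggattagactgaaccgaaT
MT-ATP6: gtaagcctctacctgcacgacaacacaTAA
MT-CO1: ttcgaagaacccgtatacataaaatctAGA
MT-ND6: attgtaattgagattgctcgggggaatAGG
The 5 tRNA genes on which the comparisons below turn are given whole, with the anticodon in capitals. MT-TF (phenylalanine, chrM:577-647), MT-TV (valine, chrM:1602-1670) and MT-TL1 (leucine, chrM:3230-3304) lie on the plus strand around the rRNA genes, and MT-TN (asparagine, chrM:5657-5729) and MT-TE (glutamate, chrM:14674-14742) are light-strand genes on the minus strand.
MT-TF: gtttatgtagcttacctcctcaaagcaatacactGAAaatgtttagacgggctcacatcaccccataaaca
MT-TV: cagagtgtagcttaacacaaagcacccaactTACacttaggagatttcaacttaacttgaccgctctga
MT-TL1: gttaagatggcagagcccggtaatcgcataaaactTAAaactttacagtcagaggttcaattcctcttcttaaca
MT-TN: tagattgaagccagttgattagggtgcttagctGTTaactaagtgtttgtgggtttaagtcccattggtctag
MT-TE: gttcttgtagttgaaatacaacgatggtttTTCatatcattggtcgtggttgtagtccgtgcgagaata
The strands differ in base composition: MT-ND6 RNA holds 35.6% G and 7.05% C, whereas G makes up from 6.28% (MT-ATP8) to 16.2% (MT-CO1) of the heavy-strand mRNAs.

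Total counts ran from 8039176 to 21096586 per NLS library and from 34705126 to 52421161 per OMM library. Of 9 genes typical of HEK293T, 7 to 9 had counts in every library, and 8 markers of other cell types summed to 1.57 to 26.5 counts per 1e6 counts (CPM), with COL1A1 the highest in every library (1.57 to 26.5 CPM). The nuclear RNA MALAT1 stood at 1128 and 1183 CPM in the NLS controls and at 5239 and 6257 CPM in the labelled NLS libraries. The strand setting of the authors' counting is not given in the sources used here, so reads of a light-strand gene and antisense reads of a heavy-strand transcript cannot be told apart.

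The 37 genes together took 4.49% and 3.19% of all counts in NLS controls 1 and 3 and 0.850% and 0.812% in labelled libraries 1 and 3. At OMM they took 7.19% and 4.29% in controls 3 and 4 and 1.17% and 1.65% in labelled libraries 2 and 3. Libraries are named by the numbers of the deposited columns, which differ from those in the sample titles, so a column could be matched to its group but not to a single sample. Labelled libraries lay below both controls at each site, with group means of 3.84% ± 0.92 against 0.831% ± 0.027 at NLS and 5.74% ± 2.05 against 1.41% ± 0.34 at OMM (SD, n = 2 each). With 2 libraries against 2 no result can go below p = 0.333 in a two-sided exact permutation test, so single shares were not tested. Counts are relative within a library: less RNA of these genes, more of all other RNA, fewer cells and less RNA per cell cannot be told apart.

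At NLS, mtDNA-encoded RNAs of every class and of both strands were lower in labelled libraries. All 36 genes that passed the filter on low counts were lower in labelled than in control libraries by edgeR's quasi-likelihood test (adjusted p under 0.05 over all 20858 genes tested), and 0 were higher. The same test called 28.5% of all genes lower and 57.3% in either direction, and the median log2 fold change over all genes was 0.14. The authors' deposited table listed 35 of the 37 genes as lower at NLS by the p-value given there, against 20.2% of all genes. For MT-CO2 that value (2.72e-167) equals the adjusted p of DESeq2's Wald test run here, so the table is not separate support. Both labelled libraries lay below both controls for 36 of 37 genes, against 37.7% of all genes tested. The remaining gene, MT-TG (tRNA for glycine), had 0 and 48 counts in the controls, against 2 and 1 after labelling, and was not tested. Median log2 fold changes were -2.79 over 13 mRNAs (-3.37 to -2.05), -2.06 over 2 rRNAs and -2.54 over the 21 tRNAs tested (-4.21 to -1.99). By strand they were -2.65 over 27 heavy-strand and -2.48 over 9 light-strand genes. When all 8 libraries shared a single estimate of the spread, 14 genes passed at NLS, the 12 heavy-strand mRNAs and both rRNAs, and MT-ND6 (adjusted p = 0.111) did not. That fit called 9.41% of all genes lower.

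**Figure D1:**
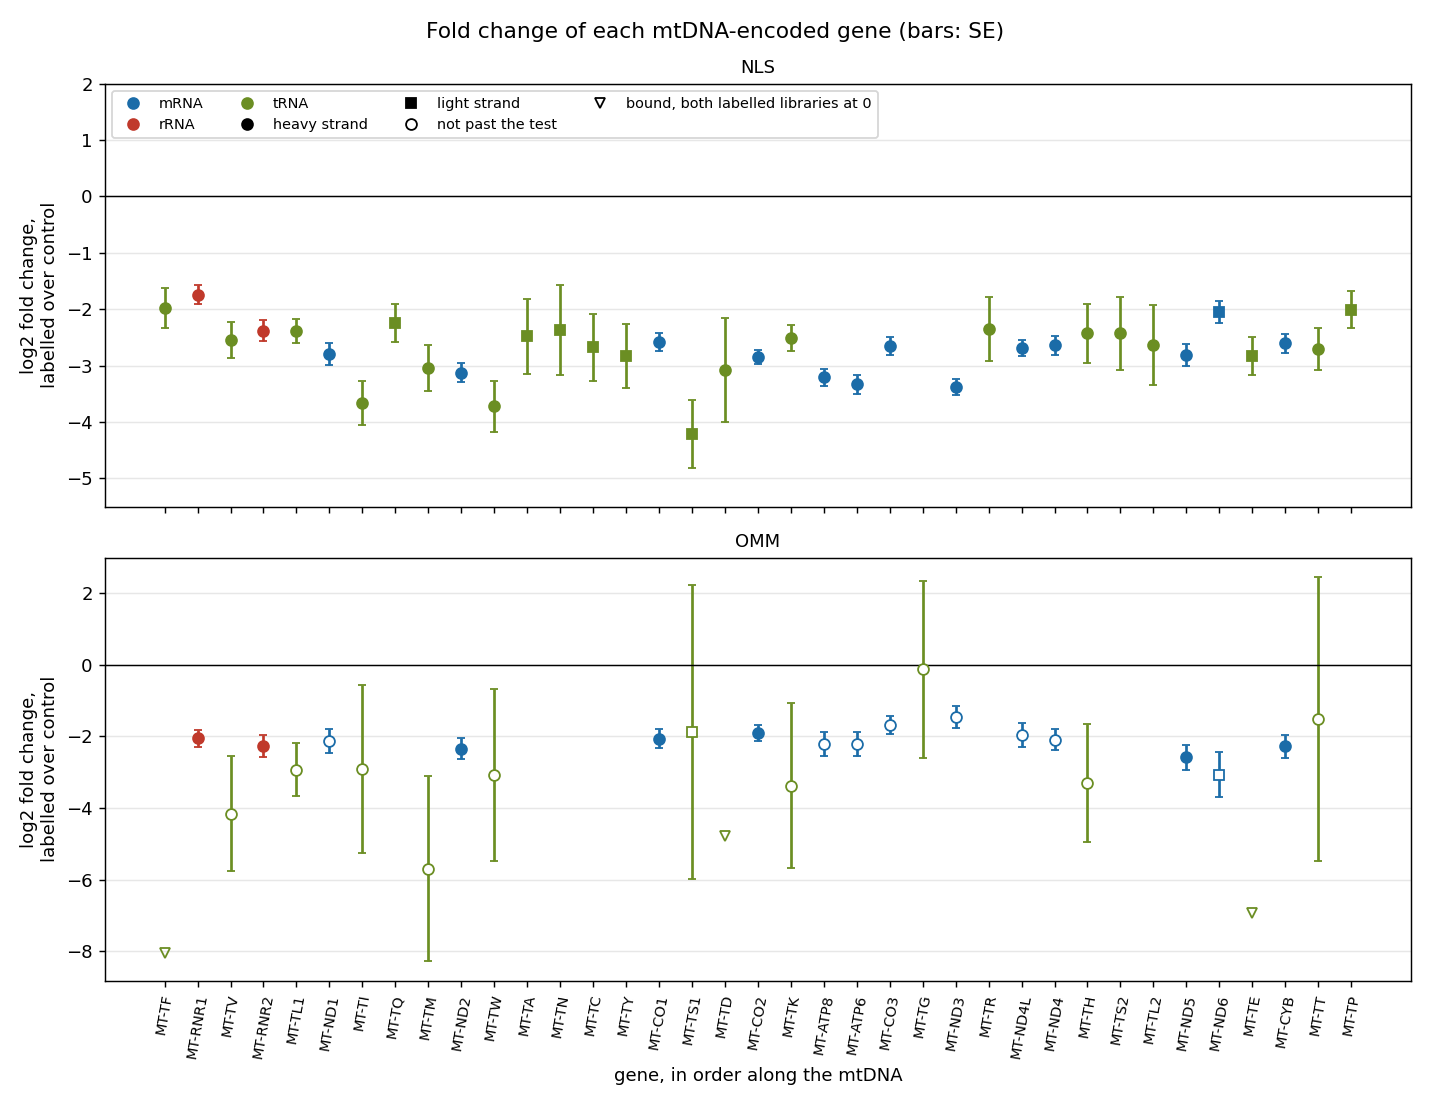
Log2 fold change of labelled over control libraries with its standard error (y axis) for each mtDNA-encoded gene in order along the mtDNA (x axis), NLS above and OMM below; colours mark RNA class, squares the light strand, open symbols genes not past the test, and open triangles bounds for genes at 0 counts in both labelled libraries and detected in both controls. At NLS every point lies between -4.21 and -1.75, and at OMM the mRNAs lie between -3.07 and -1.46 while tRNAs have wide errors.

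Among complex I mRNAs at NLS, MT-ND3 was the lowest of all mRNAs, with 498 and 391.9 CPM in the controls against 42.2 and 43.7 CPM in the labelled libraries. MT-ND2 stood at 3436 and 2513 CPM against 349 and 335. In both, labelled libraries lay close together and far below both controls. By edgeR MT-ND3 fell by 3.37 ± 0.14 (log2 ± SE, adjusted p = 1.78e-05) and MT-ND2 fell by 3.12 ± 0.16 (1.82e-05). MT-ND1, MT-ND4, MT-ND4L and MT-ND5 lay between -2.81 and -2.64. MT-ND6, the single light-strand mRNA and also a complex I subunit, changed least among the mRNAs: 466 and 306 CPM in the controls, 96.0 and 90.4 CPM after labelling, a log2 fold change of -2.05 ± 0.19 (adjusted p = 6.83e-05).

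The 2 reading frames of the ATP synthase mRNA both fell at NLS. MT-ATP6, which encodes the proton channel subunit, had 5566 and 4177 CPM in the controls against 503 and 464 CPM in the labelled libraries, and MT-ATP8 had 3148 and 2463 against 319 and 289. They fell by 3.33 ± 0.16 and 3.21 ± 0.15 on the log2 scale, with no overlap between groups. The mRNAs of cytochrome c oxidase (complex IV) had log2 fold changes nearer to 0. MT-CO1, its catalytic core subunit, had 6645 and 4983 CPM in the controls against 1000 and 949, and MT-CO2, which binds cytochrome c, had 3466 and 3019 against 468 and 429. Their log2 fold changes were -2.58 ± 0.16 and -2.85 ± 0.12, and MT-CO3 gave -2.65 ± 0.16. MT-CYB, the complex III subunit, gave -2.61 ± 0.17. The 6 mRNAs whose stop codon is completed by the tail (MT-ND1, MT-ND2, MT-CO3, MT-ND3, MT-ND4 and MT-CYB) had a median log2 fold change of -2.72 (-3.37 to -2.61), and the 7 with a full last codon -2.81 (-3.33 to -2.05).

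**Figure D2:**
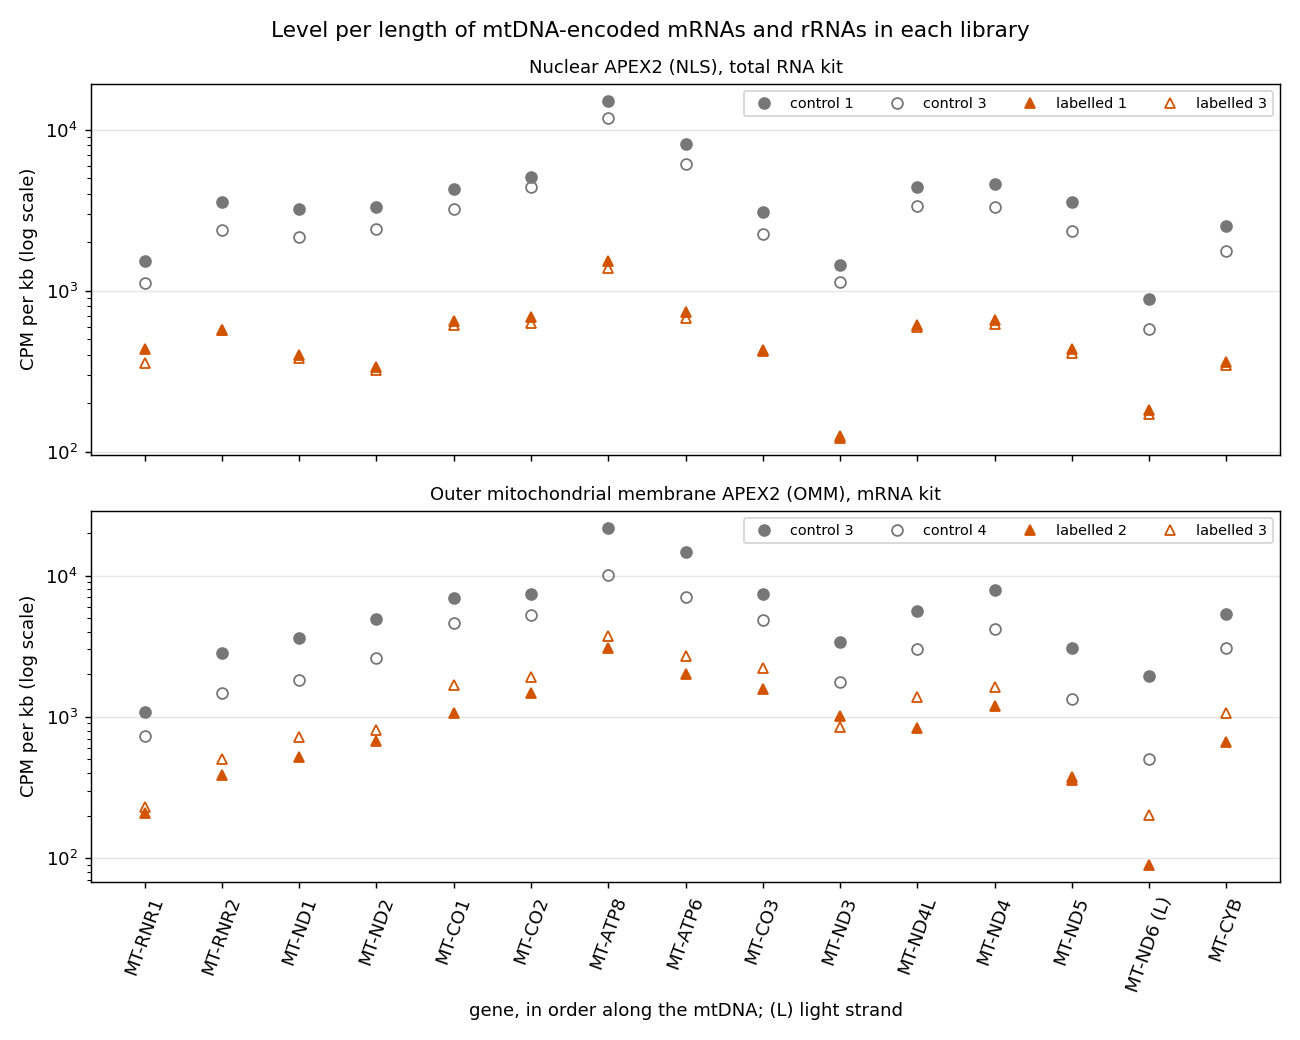
Level per length, in CPM per kb on a log axis (y axis), of the 2 rRNAs and 13 mRNAs (x axis, in order along the mtDNA) in each library; grey circles are controls, orange triangles labelled libraries, and open symbols the second library of a group. Labelled libraries lie below both controls for all 15 genes at both sites, and the NLS libraries of a group lie closer together than the OMM controls.

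Both rRNAs fell at NLS, with log2 fold changes nearer to 0 than those of all mRNAs but MT-ND6. The small-subunit rRNA MT-RNR1 (chrM:648-1601) had 1460 and 1073 CPM in the controls against 416 and 339 CPM in the labelled libraries, the smallest change of the genes tested, with a log2 fold change of -1.75 ± 0.17 (edgeR, adjusted p = 8.84e-05). The large-subunit rRNA MT-RNR2 (chrM:1671-3229) had 5558 and 3696 CPM against 886 and 893, a change of -2.38 ± 0.19 (4.02e-05). Per length, MT-RNR2 stood 2.33 and 2.11 times as high as MT-RNR1 in the controls against 1.30 and 1.61 times in the labelled libraries, without overlap. Summed rRNA per kb was 69.6% and 64.4% of summed mRNA per kb in the controls, against 102.3% and 102.2% after labelling. The 5 genes at this end of the heavy-strand transcript (MT-TF, MT-RNR1, MT-TV, MT-RNR2 and MT-TL1) all lay above the median of the members tested, between -2.54 and -1.75. How far ribosomal RNA removal in the kit acts on these 2 rRNAs was not tested.

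Transfer RNAs were rare in these libraries, which are not made to capture short RNAs: in NLS controls their summed level per kb was 8.15% and 8.46% of that of the mRNAs. The 3 tRNAs beside the rRNAs were the most abundant. MT-TL1 had 118 and 77.5 CPM in the NLS controls and 18.0 and 19.6 CPM in the labelled libraries, MT-TV 127 and 62.4 against 16.7 and 15.8, and MT-TF 75.6 and 33.5 against 14.0 and 13.5. Their log2 fold changes by edgeR were -2.38 ± 0.21 (adjusted p = 6.25e-05), -2.54 ± 0.32 (0.00031) and -1.99 ± 0.35 (0.00199). MT-TV and MT-TF no longer passed without labelled library 1 (adjusted p = 0.0871 and 0.063) or labelled library 3 (0.0694 and 0.0615). The lowest log2 fold changes were those of MT-TS1 (-4.21 ± 0.60), MT-TW (-3.72 ± 0.45) and MT-TI (-3.66 ± 0.39), tRNAs for serine, tryptophan and isoleucine. MT-TS1 rested on 75 and 115 counts in the controls and 3 in each labelled library, a fold of 19.0 with a 95% exact counting interval of 8.59 to 52.6.

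At NLS the median log2 fold change was -2.58 over 8 light-strand tRNAs and -2.54 over the 13 heavy-strand tRNAs tested. Proline tRNA MT-TP stood at 9.20 and 10.1 CPM in the controls and 2.30 and 2.49 after labelling, and glutamine tRNA MT-TQ at 12.5 and 21.6 against 3.53 and 3.63. They gave -2.01 ± 0.33 and -2.25 ± 0.34, MT-TE gave -2.83 ± 0.33, MT-TC (cysteine) -2.68 ± 0.59, MT-TY (tyrosine) -2.83 ± 0.56 and MT-TA (alanine) -2.48 ± 0.66. MT-TN had 3.60 and 23.8 CPM in the controls against 3.36 and 1.87 CPM in the labelled libraries, so control 1 lay next to labelled library 1. Its log2 fold change of -2.37 ± 0.80 (edgeR, adjusted p = 0.0344) was -0.44 (0.281) without control 3. MT-TN did not pass in 8 of 12 alternatives, with adjusted p up to 0.612, among them the fits without either labelled library, without the count filter and with DESeq2 (0.114). MT-TY did not pass without labelled library 3 (0.054). The NLS controls also differed from each other. In control 3 against control 1, 7 of 8 light-strand tRNAs were higher, by a median log2 ratio of 0.74. Of 13 heavy-strand tRNAs detected in both controls, 5 were higher and 8 lower, with a median log2 ratio of -0.57. All 12 heavy-strand mRNAs were lower, by 0.43 on the log2 scale, and so was the light-strand mRNA, MT-ND6. Light-strand genes took 11.1% of tRNA counts in control 1 and 28.9% in control 3, and 20.7% and 16.8% in the labelled libraries, which lay between the controls.

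**Figure D3:**
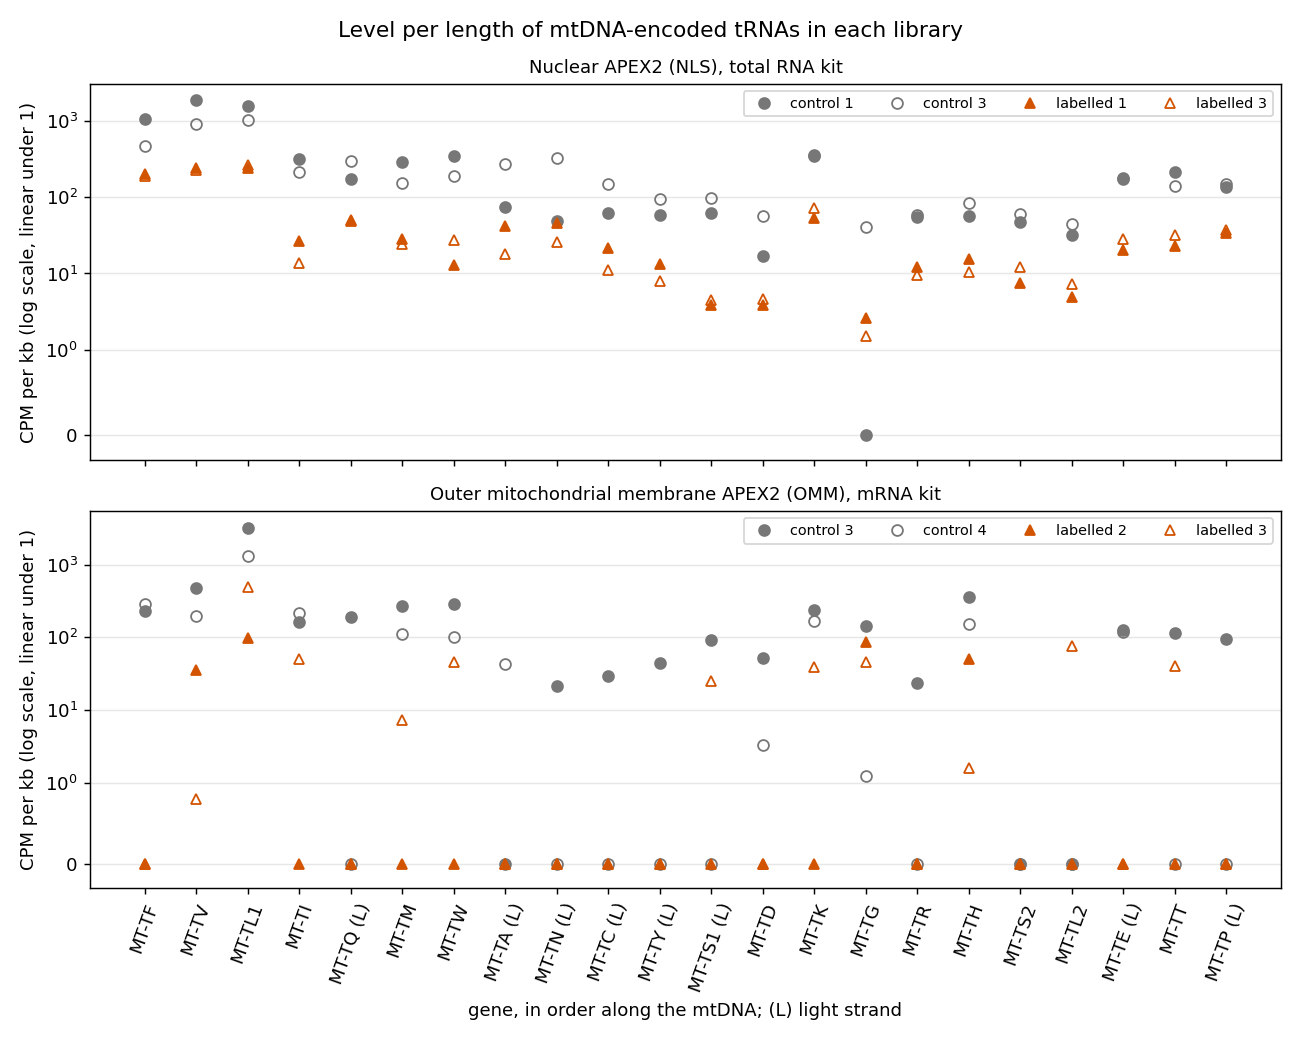
Level per length of the 22 tRNAs in CPM per kb (y axis, logarithmic above 1 and linear below) in order along the mtDNA (x axis), with light-strand genes marked (L); grey circles are controls, orange triangles labelled libraries, and open symbols the second library of a group. At NLS labelled libraries lie below both controls for 21 of 22 tRNAs, and at OMM 11 of 22 tRNAs are at 0 in both labelled libraries.

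Within the mtDNA-encoded counts, rRNA took 13.2% and 12.3% in NLS controls 1 and 3 and 18.2% in each labelled library. Light-strand genes took 0.978% and 1.07% against 1.57% and 1.52%, and tRNAs 0.926% and 0.971% against 1.09% and 1.12%. All 3 shares were higher in both labelled NLS libraries than in both controls, and the 95% exact (Clopper-Pearson) counting intervals of the groups did not overlap; they were at most 0.593, 0.189 and 0.163 percentage points wide. Intervals cover counting error only. The rise of the light-strand share at NLS followed MT-ND6, which went from 0.875% and 0.789% to 1.34% and 1.33%. Light-strand tRNAs, as a share of tRNA counts, overlapped between the groups. In mean share MT-TF went from 0.114% to 0.198%, MT-TL1 from 0.211% to 0.271% and MT-TV from 0.200% to 0.233%. Other tRNAs moved both ways, as MT-TP (0.0216% to 0.0344%) and MT-TI (0.0391% to 0.0199%) did. Neither share thus describes each gene of its strand or class. At OMM the rRNA share was 7.11% and 7.09% in the controls, against 6.89% and 6.35% after labelling, and the tRNA share 0.572% and 0.460% against 0.165% and 0.375%, lower in both labelled libraries. The light-strand share at OMM was 1.39% and 0.650% against 0.404% and 0.686%, and the groups overlapped.

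**Figure D4:**
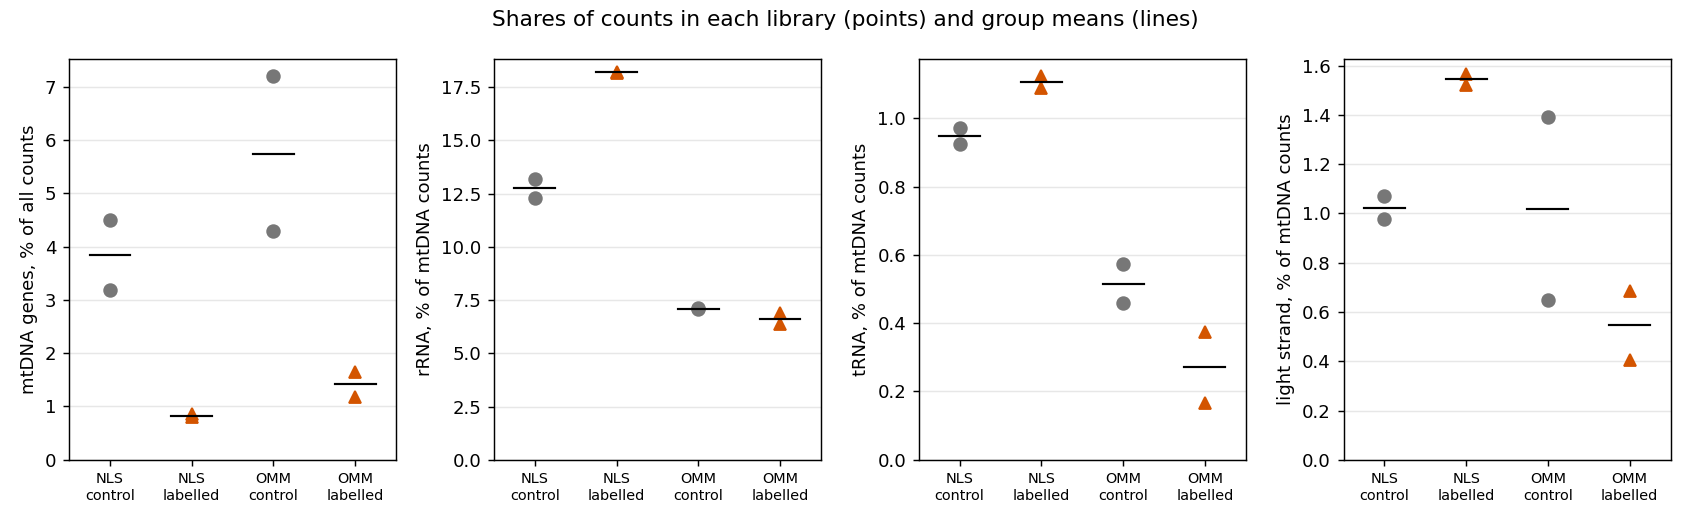
Shares of counts in percent (y axes) by group (x axis), points for the 2 libraries of a group and lines for their mean: mtDNA genes among all counts, then rRNA, tRNA and light-strand genes among mtDNA counts. The mean rRNA share is 12.7% in controls and 18.2% in labelled libraries at NLS and 7.10% and 6.62% at OMM, while mtDNA genes as a whole are lower in labelled libraries at both sites.

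To ask which members differed from the mtDNA-encoded pool as a whole, libraries were scaled to their summed mtDNA counts. On that scale 26 of the 36 members tested at NLS lay within 0.5 of no change in log2 units. By edgeR, 3 members took a larger share after labelling and 1 a smaller share, where 93.6% of all genes were higher and 0.0384% lower (93.7% in all). With so many genes called, the adjustment over all genes hardly raised the p-values. By edgeR that of MT-TF went from 0.0283 to 0.0306 and that of MT-RNR1 from 0.00137 to 0.00165. The 4 calls are thus close to unadjusted ones, and no adjustment over the members alone was made. MT-RNR1 took 2.74% and 2.77% of mtDNA counts in controls against 5.82% and 5.00% after labelling, a log2 change of its share of 0.97 ± 0.30 (adjusted p = 0.00165). MT-ND6 went from 0.875% and 0.789% to 1.34% and 1.33%, or 0.69 ± 0.29 (0.0218), and MT-TF from 0.142% and 0.0865% to 0.196% and 0.199%, or 0.79 ± 0.36 (0.0306). MT-ND3 went the other way, from 0.936% and 1.01% to 0.590% and 0.645%, or -0.66 ± 0.30 (0.0297). Groups did not overlap for any of the 4. All 4 calls were lost when either labelled library was left out, with adjusted p from 0.101 to 0.379, and MT-TF also missed the threshold in DESeq2's Wald test (0.0563) and without the count filter (0.0531). The neighbours MT-ND5 and MT-ND6, which meet end to end on opposite strands, stood at a ratio per kb of 3.998 and 4.07 in the NLS controls and 2.37 and 2.38 in the labelled libraries.

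**Figure D5:**
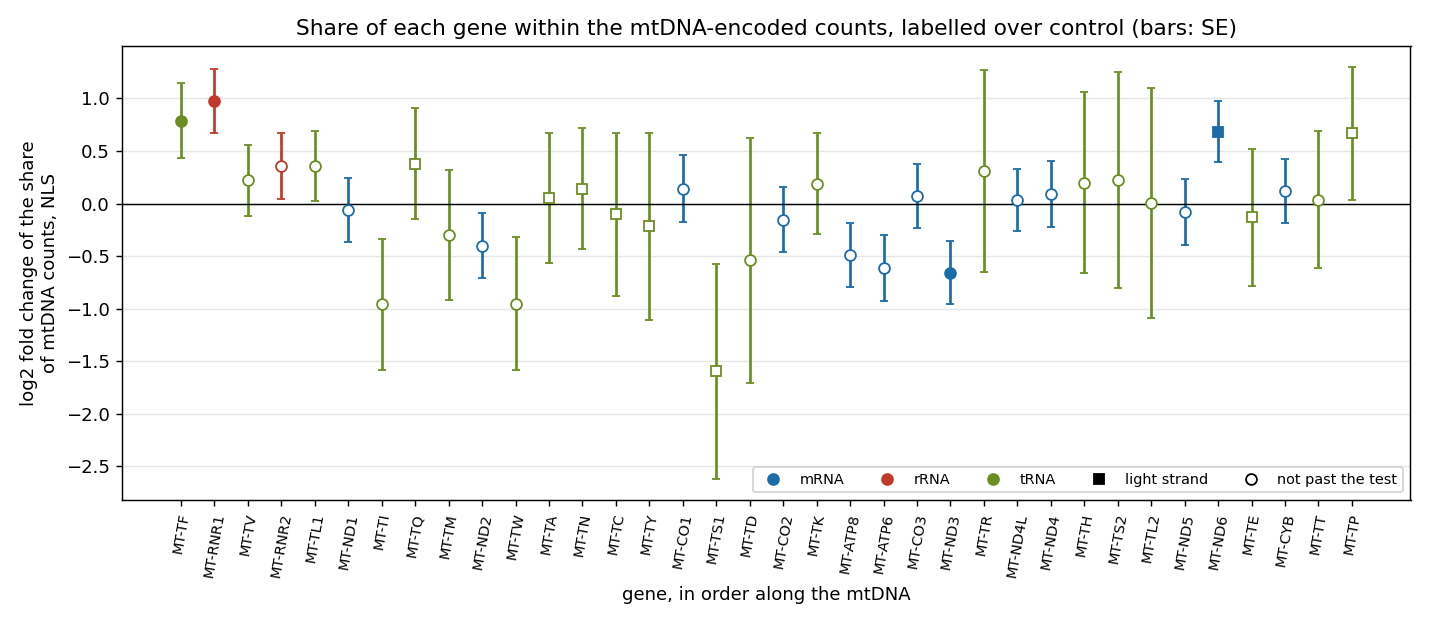
Log2 fold change of each gene's share of the mtDNA-encoded counts at NLS, labelled over control, with its standard error (y axis), in order along the mtDNA (x axis); filled symbols passed the test. MT-RNR1 (0.97), MT-TF (0.79) and MT-ND6 (0.69) lie above 0 and MT-ND3 (-0.66) below.

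At OMM 27 members passed the filter on low counts: 13 mRNAs, 2 rRNAs and 12 tRNAs. All 13 mRNAs and both rRNAs had counts in every library. Each had a negative log2 fold change, as 50.1% of all genes did. The 12 tRNAs were negative too, but MT-TF and MT-TE, at 0 in both labelled libraries, passed the filter only through the controls. So did others, among them MT-TV, MT-TI, MT-TM and MT-TW, with 0 or 2 counts in 1 labelled library. The direction of these tRNAs is thus partly set by the filter, and MT-TL2, found only in labelled library 3, was not tested. By the edgeR test 7 members passed: MT-CO1, MT-CO2, MT-CYB, MT-ND2, MT-ND5, MT-RNR1 and MT-RNR2. Only 0.0554% of the 14438 genes tested were called lower there, 8 genes in all, and the eighth was RPL36, a ribosomal protein gene. By edgeR's adjusted p no member was higher, and only 0.139% of all genes were. None was higher by unadjusted p under 0.05 or by DESeq2 either, for which no share of all genes is given. MT-CO1 had 10631 and 7164 CPM in controls 3 and 4 and 1650 and 2609 CPM in labelled libraries 2 and 3, and MT-RNR1 had 1040 and 702 against 199.5 and 219. In each of the 13 mRNAs and both rRNAs, labelled libraries lay below both controls, as for 22.5% of all genes tested. Over all 37 members this held for 25, among them 10 of 22 tRNAs, and the groups of the other 12 overlapped. MT-CO1 fell by 2.06 ± 0.27 on the log2 scale (adjusted p = 0.0384), MT-CO2 by 1.91 ± 0.22 (0.0316) and MT-RNR1 by 2.06 ± 0.24 (0.0316). MT-RNR2 fell by 2.28 ± 0.31 (0.043), MT-CYB by 2.28 ± 0.32 (0.0478), MT-ND2 by 2.35 ± 0.29 (0.0373) and MT-ND5 by 2.59 ± 0.36 (0.0457), the last of which did not pass without labelled library 3 (0.409).

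The other 8 mRNAs at OMM had adjusted p from 0.0511 to 0.13. MT-ATP6 had 10046 and 4788 CPM in the controls against 1378 and 1829 CPM in the labelled libraries, a log2 fold change of -2.21 ± 0.33 (edgeR, 0.0552), and MT-ATP8 gave -2.22 ± 0.34 (0.0552). MT-ND1 (-2.13 ± 0.33), MT-ND4 (-2.09 ± 0.30), MT-ND4L (-1.96 ± 0.34) and MT-CO3 (-1.69 ± 0.25) lay in the same range. MT-ND3 had 1174 and 613 CPM in the controls against 353 and 295, with the log2 fold change nearest to 0 among the mRNAs (-1.46 ± 0.30, 0.13). MT-ND6 had 1029 and 265 CPM against 47.0 and 107, with the value farthest from 0 (-3.07 ± 0.63, 0.13), with the widest gap between controls. OMM control 4 lay below control 3 in all 12 heavy-strand mRNAs, by 0.91 on the log2 scale at the median, and the common biological variation was 0.958 at OMM against 0.166 at NLS, as coefficients of variation. The count of members called lower at OMM moved with the fit, and so did that of all genes. It was 7 of the 8 genes called in the fit reported here, 12 of 16 with library size alone, 17 of 145 without the count filter and 20 of 873 in DESeq2's Wald test. When a library was left out it was 16 to 18, of 76 to 279 genes. The authors' deposited table gave 20 of 33 members with a p-value as lower at OMM, against 5.7% of all genes. Its value for MT-RNR1 (5.94e-20) equals the adjusted p of DESeq2's Wald test here, and both called 873 genes. The table thus repeats the DESeq2 result and adds no separate support. With libraries scaled to their mtDNA counts, MT-TF, at 0 in both labelled libraries, was the single member called lower (edgeR, adjusted p = 0.0397) and 0 members had a larger share, where 0.00693% and 49.2% of all genes were called. MT-TF passed the filter only through its controls and could only be called lower, so this call cannot support a smaller share.

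OMM tRNA values were irregular. Of 22 tRNAs, 19 and 12 had counts in controls 3 and 4 and 4 and 11 in labelled libraries 2 and 3. None of the 12 tested passed the edgeR test. MT-TF had 631 and 731 counts in the controls and 0 in both labelled libraries, where 3 counts would be 0.0567 and 0.0827 CPM, so it was at least 264-fold lower when both labelled libraries are set to that floor. MT-TE had 337 and 293 counts against 0 and 0, at least 122-fold lower. MT-TL1 stood at 238 and 98.5 CPM against 7.40 and 36.6 after labelling (log2 fold change -2.94 ± 0.74, adjusted p = 0.196). MT-TV went from 1264 and 474 counts to 132 and 2, and MT-TM (methionine) from 705 and 268 to 0 and 18. Other tRNAs were present in a single library of a group: MT-TQ had 528 and 0 counts in the controls, MT-TP 248 and 0, and MT-TL2 (leucine) had 195 counts in labelled library 3 and 0 in the other 3. Of the light strand, 7 of 8 tRNAs were at 0 in both labelled libraries, and MT-TS1 had 250 and 0 counts in the controls, against 0 and 63 after labelling. MT-TG, with 380 and 3 counts against 313 and 112, gave -0.13 ± 2.46 (0.999). Libraries of the same group thus differed by more than counting error in these tRNAs.

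The difference between sites was tested as the interaction of labelling and site in a joint fit of the 8 libraries. Of the members 2 passed, MT-TF (edgeR, adjusted p = 0.00828) and MT-TE (0.0358), and 0 passed in the other direction. Both were at 0 in the labelled OMM libraries and passed the filter there only through the controls, so these values are set against a count of 0 and cannot support a difference between the sites. Over all 23178 genes 1.41% were called in the first direction and 6.73% in the other, 8.14% in all. The 12 heavy-strand mRNAs had differences from -1.93 to -0.24, that is, a log2 fold change lower at NLS than at OMM, and none passed. Of all 23178 genes, 11106 had a negative difference. MT-ND3 lay nearest to the threshold (-1.93 ± 0.45, adjusted p = 0.0511), with log2 fold changes of -3.37 at NLS and -1.46 at OMM. MT-ND6 had a difference of 1.01 ± 0.92 (0.666) and MT-RNR1 of 0.29 ± 0.35 (0.832). Without adjustment 6 of 37 members had p under 0.05, MT-TF and MT-TE among them, against 23.1% of all genes. Both calls were lost without NLS control 1 (adjusted p = 0.0842 and 0.199) or NLS control 3 (0.0714 and 0.191), and MT-TE also without NLS labelled library 1 (0.152) or 3 (0.187). MT-ND3 passed without the count filter (edgeR, adjusted p = 0.0162) and in DESeq2's Wald test (0.0144). By edgeR it did not pass with DESeq2 size factors (0.119), library size alone (0.0969), TMM without mtDNA genes (0.0564) or nuclear copies added (0.0573). When a library was left out, the difference of MT-ND3 ran from -2.48 to -1.51. With libraries scaled to their mtDNA counts 0 members passed, and MT-ND3 stood at -1.38 (0.277). On that scale MT-CO1 (0.14), MT-ND4 (0.051), MT-ND5 (0.31) and MT-CYB (0.31) had positive differences and the other heavy-strand mRNAs negative ones. The common sign of the 12 heavy-strand mRNAs thus depends on the scaling.

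Per length, MT-ATP8 and then MT-ATP6 stood highest among the mRNAs in all 4 groups. In NLS controls MT-ATP8 had 13553 ± 2342 CPM per kb (SD, n = 2), MT-ATP6 7153 ± 1442, MT-CO2 4740 ± 463 and MT-ND4 3963 ± 919, and MT-ND3 (1286 ± 217) and MT-ND6 (735 ± 215) were lowest. In labelled NLS libraries the order was close to this, with 1468 ± 105 for MT-ATP8 and 710 ± 40 for MT-ATP6, but MT-ND3 (124 ± 3.1) lay below MT-ND6 (178 ± 7.5). In the OMM controls MT-ATP8 had 15967 ± 8363 and MT-ND6 1233 ± 1029 CPM per kb, and the 2 controls of neighbours in the order overlapped in 12 of 12 pairs, against 8 of 12 in NLS controls and 4 of 12 in labelled NLS libraries. Overlap was judged across libraries, and OMM control 4 lay below control 3 in all 12 heavy-strand mRNAs. These counts thus do not show an unsettled order within a library: MT-ATP8 stood 1.48 and 1.43 times as high as MT-ATP6 per kb in OMM controls 3 and 4. MT-ATP8 stood 1.86 to 2.09 times as high as MT-ATP6 per kb in the 4 NLS libraries and 1.40 to 1.53 times in the 4 OMM libraries, although both lie on the same mRNA. Across the 13 mRNAs, levels per length in the controls of the 2 sites had Pearson r = 0.907 and Spearman rho = 0.786 on the log2 scale. This is a description over genes, which are not independent replicates.

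Nuclear copies of mtDNA, pseudogenes with sequences close to those of the members, take some of the same reads, and reads that match both may be split. By symbol 415 such copies were listed and 144 had counts. MTATP6P1 held 54.1% to 80.7% of the counts of these copies at NLS and 89.0% to 92.2% at OMM, and it had 15.4 and 18.1 counts per 100 of MT-ATP6 in the NLS controls and 22.7 and 21.2 in the labelled libraries. Its log2 fold changes were -2.92 ± 0.12 at NLS (edgeR, adjusted p = 1.78e-05) and -2.16 ± 0.34 at OMM (0.059). At NLS, MTND2P28 (-2.88), MTCO1P12 (-2.69), MTRNR2L12 (-2.51) and MTRNR2L8 (-2.29), the other 4 most abundant copies, also fell. Of the 29 copies tested at NLS, 11 were lower and 11 higher, where 28.5% and 28.8% of all genes were. The 11 higher ones had 78 counts in the controls and 768 in the labelled libraries in all. Most of them thus passed the filter only through the labelled libraries, so their number cannot be read as a rise of the copies. At OMM 0 of 6 copies tested passed, where 0.194% of all genes did, with MTND2P28 at -2.44 (edgeR, adjusted p = 0.22) and MTCO1P12 at -1.92 (0.81).

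Nuclear genes for the same complexes were compared by count. Of 79 nuclear-encoded subunits of oxidative phosphorylation, whose mRNAs are translated in the cytosol, 70 were lower and 3 higher at NLS by edgeR, where 28.5% and 28.8% of all genes were, with a median log2 fold change of -1.39 beside -2.79 for the 13 mtDNA-encoded mRNAs. At OMM 0 of 77 passed, where 0.194% of all genes did, and their median was -0.63, beside -2.13. Of these 77 subunits 68 had a negative log2 fold change, against 50.1% of all genes. In simulated counts the test recovered 11% of log2 changes of 1 at OMM and 100% at NLS. A count of 0 at OMM thus does not show that nothing changed. Of 51 genes whose proteins transcribe, process or maintain mtDNA and its RNA, 26 were lower and 13 higher at NLS, with a median of -0.38; 13 of 51 is near the 28.8% of all genes called higher. The lowest were HSD17B10 (-1.80) and TRMT10C (-1.64), subunits of the enzyme that cuts tRNA 5′ ends, and SLIRP (-1.44), which binds mitochondrial mRNAs. The highest were POLG2 (1.71), the accessory subunit of the mtDNA polymerase, MRM1 (1.39), which methylates the large rRNA, and PTCD2 (1.24). At OMM 0 of these 51 passed, against 0.194% of all genes, and their median was -0.14. The nuclear lists are described by counts and medians and were not tested as groups.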

How the data were processed

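The authors deposited read counts per gene. The submitters' processing notes name HTSeq, STAR, Trimmomatic, SAMtools, bedtools, DESeq2, GRCh38.p13 and hg38, with no tool version. For each gene there is also a log2 fold change and a p-value in the authors' deposited table. How RNA was released from the beads is not settled: the series text names Proteinase K (NLS) and TRIzol (OMM), the labels RNeasy throughout. Columns were matched to groups by name; 4 count columns and 2 comparison columns matched no sample and were not used.

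Counts were tested with edgeR 4.0.16 (R 4.3.3, robust quasi-likelihood F test, two-sided, TMM factors, filterByExpr with a minimum of 10, prior count 0.125, Benjamini-Hochberg over all genes tested, threshold 0.05), on each site apart and, for the difference between sites, on 8 libraries jointly. The SE was taken as |log2 fold change| over sqrt(F). CPM is scaled by TMM. Shares within mtDNA were tested with libraries scaled to their summed mtDNA counts. DESeq2 1.42.0 was an alternative. The scripts were tested on simulated counts. There false calls made up 1.96% of calls at NLS and 8.91% at OMM, the latter above the 0.05 threshold. With mtDNA scaling they made up 0.990% at NLS and 10.2% at OMM, and for the interaction 5.15%. In CPM, 3 counts (the floor) came to 0.171 to 0.311 in NLS libraries and 0.0567 to 0.0847 in OMM libraries. Gene strand, position and sequence come from GENCODE 29, which held 58396 of 60664 identifiers. Replicates differed by more than sampling noise (chi-square per degree of freedom of 4.55 or more), so each counted as 1 sample.

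All 37 members may be named. Full statistics were given for mRNAs, rRNAs, the 3 most abundant, 3 highest and 3 lowest tRNAs and the light strand; nuclear copies were named from the 5 highest mean counts per site, and genes of mtDNA expression by the 3 highest and 3 lowest log2 fold changes past the threshold. The members and lists were chosen with earlier results of these data known.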

Additional observations from a re-analysis of the deposited data

Results flagged for a closer look

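MT-TF and MT-TE passed the interaction test of labelling and site (edgeR, adjusted p = 0.00828 and 0.0358). Both tRNAs were at 0 counts in the labelled OMM libraries and passed the filter there only through the controls, so the test sets a fold change against a count of 0 and cannot support a difference between the sites. With libraries scaled to their mtDNA counts neither passed (0.133 and 0.206). Neither passed without NLS control 1 or NLS control 3, and MT-TE did not pass without either labelled NLS library.

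The rRNA share of mtDNA counts was 5.44 percentage points higher in labelled than in control libraries at NLS and -0.473 percentage points, labelled minus control, at OMM. The tRNA share differed by 0.158 percentage points at NLS and by -0.245 at OMM. In both cases each labelled NLS library lay above both controls and each labelled OMM library below both. The difference between sites in these shares was not tested, and site coincides with kit and RNA selection.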

How the results depend on the processing

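At NLS the count of 36 lower members ran from 27 to 37 when a library was left out and was 14 with all 8 libraries in a single fit, where 9.41% of all genes were lower. With the library number as a replicate block it was 35, MT-TN being lost. The labels do not say whether the numbers pair the libraries. Same-numbered NLS libraries deviated with a correlation of -0.033 over 20858 genes, but only 2 pairs cannot settle this. At OMM the arms share a single number, so no block could be fitted. Library size alone moved the NLS median of all genes from 0.14 to 0.66 and the medians of mRNAs, rRNAs, tRNAs, heavy-strand and light-strand members to -2.28, -1.55, -2.03, -2.14 and -1.96. Leaving out a library gave NLS medians of -2.95 to -2.49 for mRNAs and -3.12 to -1.94 for the light strand, and OMM medians of -10.9 to -2.28 for tRNAs and -10.1 to -1.79 for the light strand, where a group at 0 sets the fitted values.

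The OMM count of 7 (of 8 genes called lower) was 12 of 16 with library size alone, 20 of 873 in DESeq2's Wald test, 17 of 145 without the count filter and 16 to 18 of 76 to 279 without a library; an arm left with 1 library is assumed to vary like the other groups. Members with a lower fold change at NLS than at OMM numbered 2 in DESeq2, 2 without the filter and 0 to 5 without a library. Those in the other direction numbered 0 to 6 without a library and 0 with libraries scaled to mtDNA counts, an alternative chosen after seeing the data. For shares at NLS, 0 to 9 members were lower and 0 to 8 higher without a library, and 3 were lower in DESeq2. For shares at OMM, 0 were lower without the filter or without any library, and 2 were lower and 1 higher in DESeq2. Without OMM control 3 the OMM log2 fold changes of MT-TG, MT-TT and MT-TS1 turned to 5.68, 8.79 and 8.17, and without labelled library 3 that of MT-TG to 0.27, none past the test. Over the 4 libraries left out, the lowest values were -1.11 for MT-TG, -10.3 for MT-TT and -10.1 for MT-TS1. The causes were not tested. Where no share or number of all genes stands beside a count of members in this section, the count describes the fit. It is not a result about the members. A group at 0 allows only a bound.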
